A study of Mus musculus with 8 samples.

Results

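The neuregulins, other EGF-family ligands and ErbB receptors were examined in ventricles of mouse embryos at embryonic day 15.5, to ask which receptors and which alternative ligands are transcribed there and whether any of them differed where Nrg1 was to be deleted. The 10 genes, of 53465 in the table, were taken by symbol. They are the ligands Nrg1, Nrg2, Nrg4, Hbegf, Btc and Areg and the receptors Egfr, Erbb2, Erbb3 and Erbb4. RNA-seq had been made from 4 WT libraries and 4 libraries labelled Nrg-1flox;Cdh5-CreERT2, with 1 ventricle per library according to the design text. In the labelled line a tamoxifen-inducible Cre, driven by the endothelial Cdh5 promoter, is meant to delete floxed Nrg1 sequence in endothelial cells alone, so that Nrg1 of other cells is left intact. The time of tamoxifen, the zygosity of the allele, and whether WT embryos carried the Cre or received tamoxifen are not given in the sources used here, nor is whether the libraries came from separate litters. The p-values therefore measure the spread between these libraries.

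Ligands of the EGF family are made as membrane-bound precursors, and proteases release an active part that holds an EGF-like domain with 3 disulfide bonds. Neuregulins bind ErbB4, and some but not all of them bind ErbB3 as well. Amphiregulin binds EGFR, and betacellulin and heparin-binding EGF (HB-EGF) bind both EGFR and ErbB4. ErbB2 has no known ligand of its own and acts as the preferred partner of the other receptors, while ErbB3 is a weak kinase that signals through its partner. In the embryonic heart, neuregulin-1 is known as an endocardial signal to the ErbB2 and ErbB4 of cardiomyocytes, without which trabeculae do not form.

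The coding stretches of the EGF-like domain are shown for the ligands Nrg1, Nrg4, Btc and Areg, because this domain is what makes these otherwise unlike genes ligands of 1 receptor family. They were read 5′ to 3′ on the coding strand from the GENCODE M21 transcript with the longest coding sequence that holds it, on GRCm38, by a search for the spacing of its 6 cysteines, whose codons are in capitals.
Nrg1: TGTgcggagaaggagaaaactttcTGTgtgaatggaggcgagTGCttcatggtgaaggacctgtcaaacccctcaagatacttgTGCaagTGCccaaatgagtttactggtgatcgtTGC
Nrg4: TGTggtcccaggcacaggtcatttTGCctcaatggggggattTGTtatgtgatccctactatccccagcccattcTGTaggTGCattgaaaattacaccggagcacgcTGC
Btc: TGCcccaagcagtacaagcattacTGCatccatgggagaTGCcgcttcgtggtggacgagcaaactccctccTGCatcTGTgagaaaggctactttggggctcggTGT
Areg: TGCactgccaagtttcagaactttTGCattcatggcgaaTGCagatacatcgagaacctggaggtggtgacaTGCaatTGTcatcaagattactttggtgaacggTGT
The stretch of Nrg1 (chromosome 8, 31837698 to 31849398, minus strand) was the longest, at 120 bases, since 13 codons separate the third and the fourth cysteine. That loop was 10 codons in Nrg4 (chromosome 9, 55242177 to 55280969, minus strand), Btc (chromosome 5, 91362421 to 91366197, minus strand) and Areg (chromosome 5, 91143614 to 91144364, plus strand). Nrg1 and Nrg4 also had 5 codons between the second and the third cysteine, against 4 in Btc and Areg. In each of the 4 genes the domain lies on 2 coding exons, of which the second holds its last 31 bases. Of 12 annotated protein-coding Nrg1 transcripts, 10 had a coding sequence that opens with a methionine codon and holds the whole pattern.

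For the receptors, the catalytic loop of the kinase domain is shown, as a conserved stretch in which the counting has to tell 4 related genes apart. The capitals mark the codon of the catalytic aspartate, which is present in mouse Erbb3 as well.
Egfr: gtgcaccgtGACttggcagccaggaatgta
Erbb2: gttcacaggGACctagctgcccgaaacgtg
Erbb3: gtgcataggGACcttgcgctccggaatgtg
Erbb4: gttcatcggGATctggcagcccgcaatgtc
These 30 bases lie in 1 exon of Egfr (chromosome 11, 16904335 to 16904364, plus strand), Erbb2 (chromosome 11, 98434244 to 98434273, plus strand), Erbb3 (chromosome 10, 128572530 to 128572559, minus strand) and Erbb4 (chromosome 1, 68080736 to 68080765, minus strand). Between any pair of receptors, 20 to 22 of the 30 bases matched. The expected counts of Erbb2, Erbb3 and Erbb4 were whole numbers in every library, as they are when reads are not divided between genes. Those of Egfr were not whole in 4 of the 8 libraries.

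The libraries held 16761763 to 24144272 expected counts, with scaling factors (TMM) of 0.988 to 1.02. Cardiomyocyte markers (Tnnt2, Myh6, Myh7, Actn2, Ttn and Tnni1) summed to between 29248 and 34640 CPM (counts scaled to 1000000 per library) in each library, and endothelial and endocardial markers to between 1033 and 1148 CPM. Of the Schwann and neural crest markers, Foxd3 was at 0 to 2 expected counts and Sox10 at 3 to 13, whereas Mbp was detected. Xist and Y-linked transcripts were found together, each at over 20 counts, in 7 of the 8 libraries, although each is labelled as 1 ventricle. The Y-linked sum was 69.3 to 171 CPM in WT and 42.9 to 120 CPM in the labelled libraries. These are bulk samples, in which fewer cells of a type and less RNA per cell cannot be told apart.

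The targeted gene was examined first. Nrg1 (ENSMUSG00000062991, chromosome 8, 31814551 to 32884029, minus strand) spans 1069 kb, with 10351 bases in the union of its exons. Its CPM values were 5.46, 4.64, 4.08 and 5.31 in WT libraries 1 to 4, and 6.82, 6.33, 6.16 and 5.36 in labelled libraries 1 to 4. The values of the groups met only at labelled library 4, which lay below the highest WT library, and they were not lower under the deletion label. On the log2 scale the labelled libraries were 0.34 higher (SE 0.12, edgeR's unadjusted p = 0.0138, adjusted p = 0.311), which did not pass the test. The 95% confidence interval, unadjusted, ran from 1.06 to 1.52 times the WT level and so held no decrease of total Nrg1 transcript. Gene-level counts hold all cell types, and they hold exons outside the floxed part. Cdh5, whose promoter drives the Cre, was expressed in every library, at 279 to 297 CPM. Directions below are therefore those of the libraries labelled Nrg-1flox;Cdh5-CreERT2, called labelled libraries.

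Of the receptors, Erbb2 was by far the most abundant. Levels were compared between genes only after division by exonic length, as CPM per kb of the union of annotated exons. Erbb2 (chromosome 11, 98412470 to 98437716), the ligandless partner, was at 27.6 ± 0.743 CPM per kb (SD over the 8 libraries), above 89.1% of all tested genes. Erbb4 (chromosome 1, 68032186 to 69108059), which binds neuregulins, followed at 3.57 ± 0.15 CPM per kb, and Erbb3 (chromosome 10, 128567523 to 128589652) at 2.77 ± 0.267 CPM per kb. Egfr (chromosome 11, 16752203 to 16918158) was lowest, at 0.531 ± 0.0681 CPM per kb. The ranges over libraries did not overlap between any of these receptors. Erbb2 made up 79.3% to 81.7% of the summed receptor level per kb in each library, Erbb4 9.97% to 10.8%, Erbb3 6.67% to 9.29% and Egfr 1.32% to 1.91%. The ratio of Erbb2 to Erbb4 per kb was 7.34 to 8.11 over the 8 libraries.

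Of the ligands, Hbegf was the most abundant and Areg was close to absent. Hbegf (chromosome 18, 36504927 to 36515805), which encodes HB-EGF, was at 3.48 ± 0.28 CPM per kb, so that its range overlapped those of Erbb4 and Erbb3. Btc (chromosome 5, 91357261 to 91402994), which encodes betacellulin, was at 0.816 ± 0.0828 CPM per kb. Nrg1 was at 0.533 ± 0.0871 CPM per kb, with a range that overlapped that of Egfr and ended just under that of Btc. Nrg2 (chromosome 18, 36017652 to 36197380) and Nrg4 (chromosome 9, 55220222 to 55326844), further neuregulin genes, were at 0.183 ± 0.058 and 0.175 ± 0.0541 CPM per kb, with overlapping ranges. Areg (chromosome 5, 91139599 to 91148432), which encodes amphiregulin, had 1 or 2 expected counts in each library. That is under a floor of 3 counts, which corresponds to 0.126 to 0.177 CPM, so its level cannot be told from none at this depth.

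**Figure D1:**
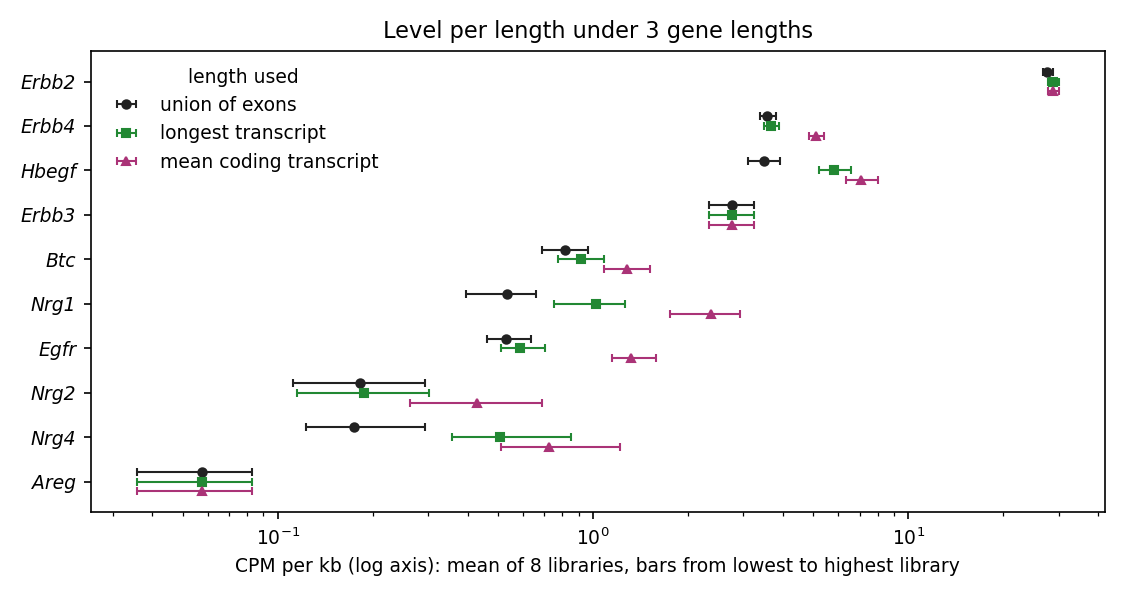
Levels of the 10 genes in CPM per kb (log axis) under 3 definitions of gene length, as the mean of 8 libraries with bars from the lowest to the highest library. Erbb2 stands apart at 27.6 to 28.7 CPM per kb whichever length is used, while Nrg1 moves from 0.533 to 2.36 CPM per kb.

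This order depended on the length used in its middle part. The counted table lists a single Hbegf transcript, whereas the annotation has 3. With the exons of the counted transcripts alone, Hbegf was at 7.09 CPM per kb, above Erbb4, and the other 9 genes kept their levels. With the mean length of the protein-coding transcripts, Nrg1 was at 2.36 CPM per kb and passed both Btc (1.28) and Egfr (1.32). Erbb2 was first and Areg last under every length tried. On the main scale Hbegf made up 62.6% to 70% of the summed ligand level in each library, and 77.3% to 82.6% with the counted transcripts. With the mean coding transcript it was 54.5% to 64%. Nrg1 made up 7.69% to 13.3% on the main scale, 4.56% to 8.06% with the counted transcripts and 15% to 25.2% with the mean coding transcript. Summed receptors exceeded summed ligands 5.64 to 7.27 times per kb, 3.37 to 4.31 times with the counted transcripts and 2.73 to 3.44 times with the mean coding transcript.

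**Figure D2:**
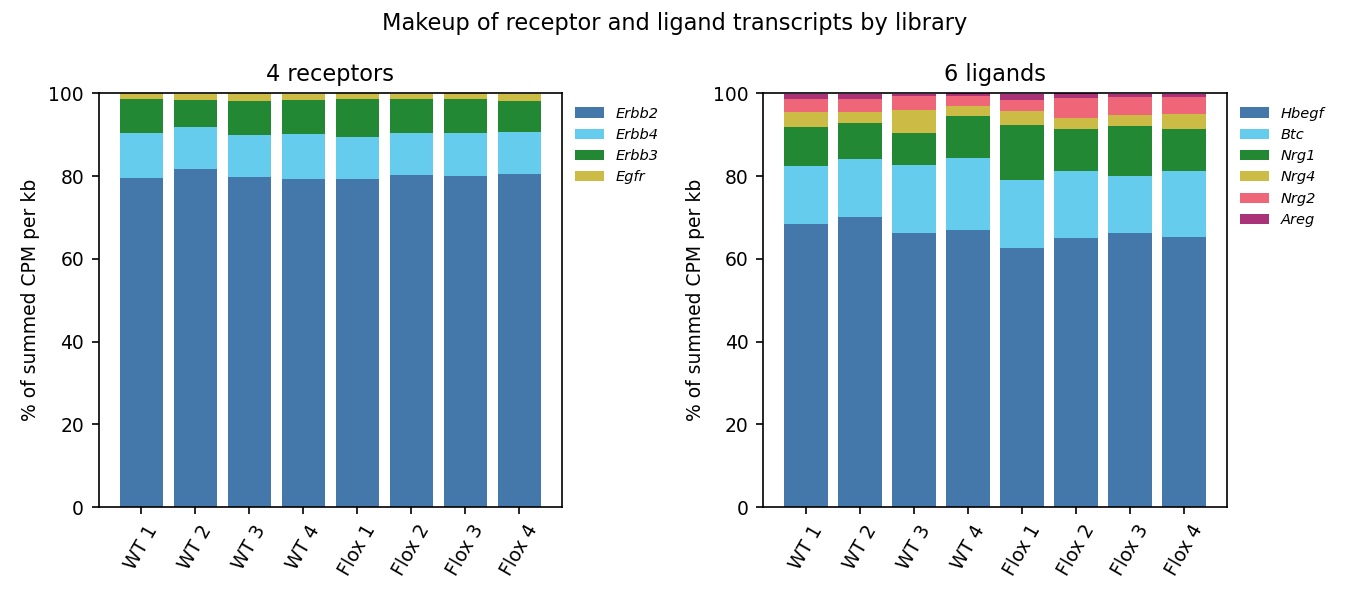
Share of each gene in the summed CPM per kb of the 4 receptors (left) and the 6 ligands (right), in percent, for WT libraries 1 to 4 and labelled libraries 1 to 4 (Flox), with the union of annotated exons as length. Erbb2 takes 79.3% to 81.7% of the receptor bars and Hbegf 62.6% to 70% of the ligand bars.

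No receptor or alternative ligand passed the test between the groups. Of the 10 genes, 9 passed the filter on low counts, and none of them reached an adjusted p below 0.05 in edgeR's quasi-likelihood test, where 0.526% of the 15388 tested genes did (0.312% higher and 0.214% lower in labelled libraries). The count was 0 with DESeq2 and limma voom as well, which called 1.37% and 0.37% of the genes to which they gave an adjusted p. At an unadjusted p below 0.05 Nrg1 alone passed, against 10.5% of all tested genes. In all 10 the groups overlapped, while 6.05% of tested genes had groups apart. The median log2 fold change of the 9 tested genes was 0.02, beside -0.0012 over all tested genes. Without regard to sign, the median was 0.119, beside 0.0594 over all tested genes.

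In CPM, Erbb2 had values of 141, 149, 139 and 143 in WT libraries 1 to 4 and of 144, 142, 150.1 and 143 in labelled libraries 1 to 4. The highest and lowest values of the groups were interleaved. Its log2 fold change was 0.02 (SE 0.0334, edgeR's adjusted p = 0.898), and the 95% confidence interval ran from 0.964 to 1.07 times the WT level. This is the narrowest interval of the 9 tested genes.

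Erbb4 was at 45.4, 43.6, 42.6 and 46.1 CPM in WT libraries and at 43.5, 41.9, 46.9 and 42.5 CPM in labelled libraries. Both the lowest and the highest value were found among the labelled libraries. This gave a log2 fold change of -0.02 (SE 0.0438, edgeR's adjusted p = 0.917), with an interval of 0.922 to 1.05 times the WT level. Both members of the receptor pair that carries the neuregulin signal in cardiomyocytes thus had intervals between 0.922 and 1.07 times the WT level.

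Erbb3, best known from Schwann cells and valve mesenchyme, was at 16.7, 14, 16.2 and 17 CPM in WT libraries. In labelled libraries it was at 19.5, 16.7, 17.7 and 15.4 CPM, so that labelled library 1 was highest and WT library 2 lowest. The labelled libraries were 0.12 higher on the log2 scale (SE 0.0824, edgeR's adjusted p = 0.670), and the interval reached from 0.959 to 1.23 times. Without labelled library 1 the value was 0.06 (adjusted p = 0.912), as it was without WT library 2 (adjusted p = 0.868). The Schwann marker Mbp had a log2 fold change of -0.04 (adjusted p = 0.958). Of 5 fibroblast and valve markers, Sox9 (-0.19), Postn (-0.18) and Dcn (-0.08) were at negative log2 fold changes and Tcf21 (0.07) and Col1a1 (0.003) at positive ones, with a median of -0.08. The part of these cells in the Erbb3 value was not tested.

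Egfr was at 5.27, 5.96, 7.21 and 6.59 CPM in WT libraries and at 5.21, 5.50, 5.50 and 6.83 CPM in labelled libraries. In labelled libraries 3 of the 4 values lay close together, and library 4 lay between WT libraries 3 and 4. This corresponds to a log2 fold change of -0.13 (SE 0.124, edgeR's adjusted p = 0.796). With 103 to 166 expected counts per library, the interval was wider, at 0.76 to 1.1 times the WT level. The value was -0.05 without WT library 3, -0.20 without WT library 1, -0.21 without labelled library 4 and -0.08 without labelled library 1. The antisense gene Egfros lies within Egfr without sharing exonic bases.

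**Figure D3:**
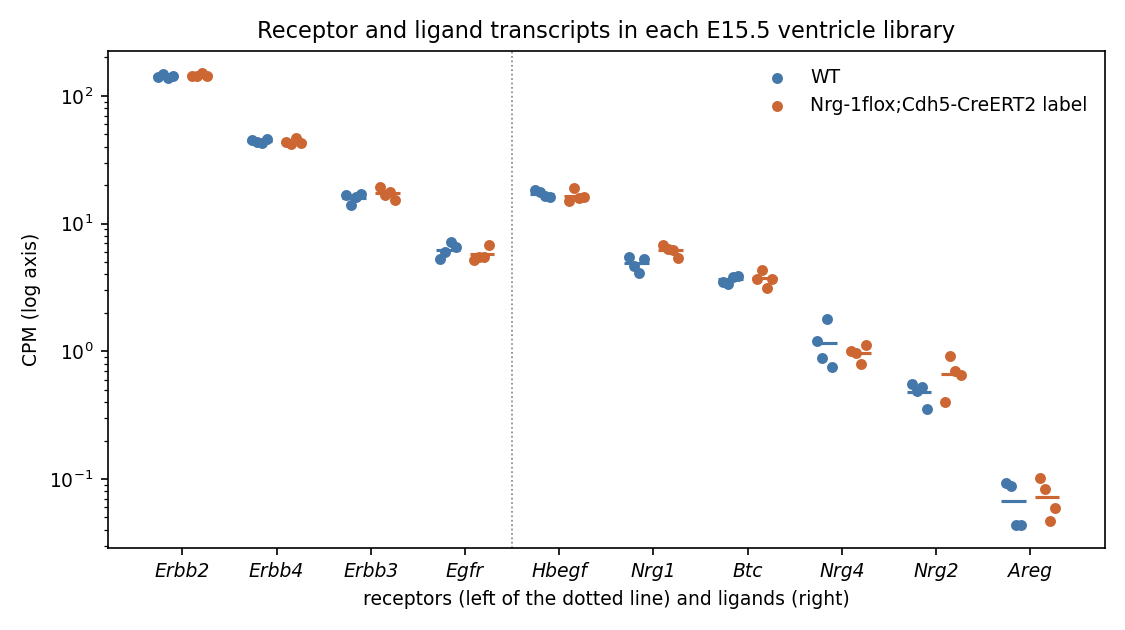
CPM (log axis) of each receptor and ligand in WT libraries (blue) and in libraries labelled Nrg-1flox;Cdh5-CreERT2 (orange), 4 points per group with the group mean as a line. The groups overlap for all 10 genes, over a range from about 0.0435 CPM for Areg to 150.1 CPM for Erbb2.

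Among the ligands other than Nrg1, Hbegf was at 18.4, 17.7, 16.4 and 16.2 CPM in WT libraries and at 15, 19, 15.9 and 16.1 CPM in labelled libraries. Labelled library 2 was the highest of all 8, and the other 3 labelled libraries lay below every WT library. Its log2 fold change was -0.05 (SE 0.0778, edgeR's adjusted p = 0.879). For the transcript of the whole ventricle, the unadjusted interval ran from 0.857 to 1.08 times the WT level. A change of this most abundant alternative ligand within 1 cell type was not tested.

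Btc was at 3.52, 3.36, 3.82 and 3.91 CPM in WT libraries and at 3.69, 4.36, 3.12 and 3.71 CPM in labelled libraries. The WT values lay inside the range of the labelled values. Between the groups the log2 fold change was 0.03 (SE 0.133, edgeR's adjusted p = 0.970), with an interval of 0.836 to 1.25 times the WT level.

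Nrg2 and Nrg4, the neuregulins that remained, were near the limit of what these libraries can resolve. Nrg2 had 12, 11, 12 and 8 expected counts in WT libraries and 8, 22, 15 and 11 in labelled libraries, that is 0.478 ± 0.0893 and 0.669 ± 0.213 CPM (SD, n = 4). Labelled libraries 2, 3 and 4 were above every WT library in CPM, and labelled library 1 was below 3 of them. The log2 fold change of 0.50 was the largest of the 9 in size, but so was its SE of 0.317 (edgeR's adjusted p = 0.634), and the interval of 0.877 to 2.27 times would hold a rise as well as a decrease. Without labelled library 2 the log2 fold change was 0.29 (adjusted p = 0.847).

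Nrg4 had 17 to 40.7 expected counts per library, that is 1.15 ± 0.46 CPM over WT libraries and 0.972 ± 0.135 CPM over labelled libraries (SD, n = 4). The WT libraries were at 1.20, 0.883, 1.78 and 0.747 CPM and enclosed all 4 labelled libraries, at 1.01, 0.965, 0.793 and 1.12 CPM. Its log2 fold change was -0.25 (SE 0.287, edgeR's adjusted p = 0.832), with an interval of 0.545 to 1.29 times. It rested on WT library 3, without which it was 0.04 (adjusted p = 0.985). The counts of Nrg4 were not whole in any library, and the gene shares 368 exonic bases with Fbxo22 on the opposite strand, itself at 46.8 ± 1.24 CPM in WT (SD, n = 4). The strand setting of the counting is not given in the sources used here, so part of the Nrg4 reads is uncertain.

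**Figure D4:**
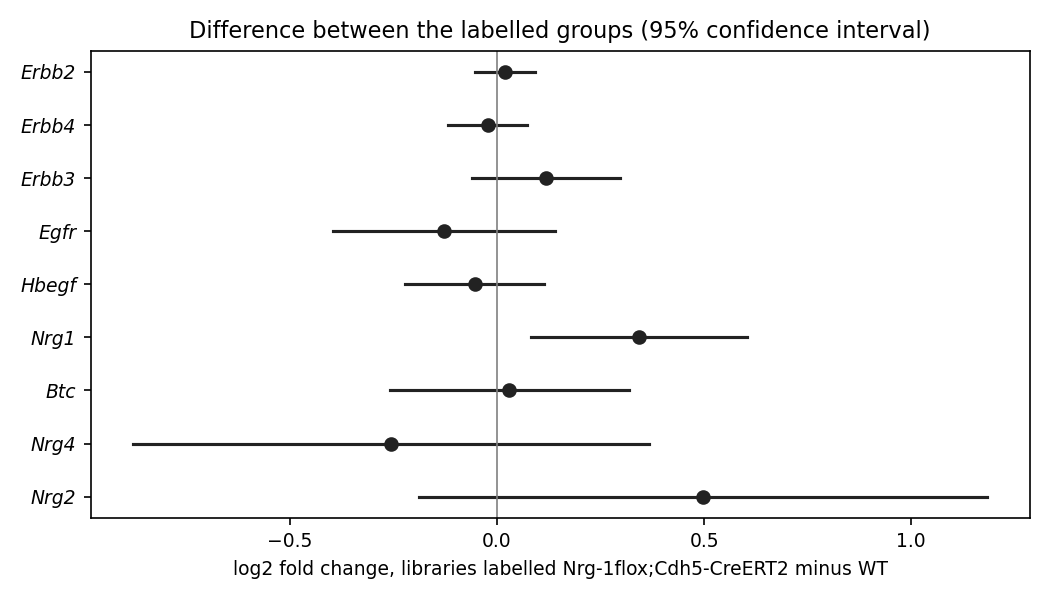
Log2 fold change of the libraries labelled Nrg-1flox;Cdh5-CreERT2 against WT with 95% confidence intervals for the 9 genes that passed the filter on low counts. The intervals for Erbb2 (-0.05 to 0.09) and Erbb4 (-0.12 to 0.07) are narrow, that for Nrg2 (-0.19 to 1.18) is wide, and that for Nrg1 (0.08 to 0.60) lies above 0.

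Summed without Nrg1, the ligands were at 5.03, 4.77, 4.74 and 4.49 CPM per kb in WT libraries and at 4.30, 5.41, 4.36 and 4.60 CPM per kb in labelled libraries. The labelled libraries held both the highest and the lowest sum. As a share of all 6 ligands, Nrg1 was at 9.01% ± 1.12 in WT and 11.4% ± 1.54 in labelled libraries, and Hbegf at 67.9% ± 1.68 and 64.8% ± 1.52 (SD, n = 4). The Hbegf shares of the groups did not overlap (66.19% to 70% in WT and 62.6% to 66.16% in labelled libraries), although the nearest libraries almost met. A share moves with the other ligands as well, and the CPM values of Hbegf itself overlapped between the groups. These sums and shares are descriptions of the chosen genes and were not tested.

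Of the remaining EGF-family ligands, Tgfa had the highest level per kb. Tgfa, which encodes the EGFR ligand TGF-alpha, had means of 11.1 ± 0.933 CPM in WT and 11.1 ± 1.03 CPM in labelled libraries (SD, n = 4), and the groups were -0.005 apart on the log2 scale (SE 0.0879, edgeR's adjusted p = 0.993). At 1.71 CPM per kb, Tgfa was above Btc and every neuregulin gene on that scale, so that of the ligands measured only Hbegf was higher. It is not among the 6 ligands of the sums and shares. Egf was at 2.42 ± 0.429 and 2.23 ± 0.565 CPM in WT and labelled libraries (SD, n = 4, edgeR's adjusted p = 0.923). Its mean of 0.206 CPM per kb lay just above those of Nrg2 (0.183) and Nrg4 (0.175). Ereg (1 to 10 expected counts), Epgn (1 to 7) and Nrg3 (0 or 1) did not pass the filter, so that Nrg3 was not detectable at this depth.

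The genes that process the ligands, restrain the receptors and carry their signal were then examined as 4 lists of 54 genes, including these 5 ligands. Of the 51 that passed the filter, 21 had a positive and 30 a negative log2 fold change, none reached an adjusted p below 0.05 in edgeR's test, and 7 had an unadjusted p below 0.05, where 10.5% of all tested genes did. DESeq2, which called 198 genes in all, called 1 of them, and limma voom 0. Their median log2 fold change was -0.0065, beside -0.0012 over all tested genes.

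Of 11 ligand-processing genes, 4 were at positive and 7 at negative values, with a median of -0.03. Adam10 and Adam9, metalloproteases that shed membrane-bound ligands, had the highest levels per kb (39.8 and 26.8 CPM per kb), with log2 fold changes of -0.03 and -0.007. The smallest p belonged to Furin, a proprotein convertase that trims precursors, which was at 144, 136, 135 and 138 CPM in WT libraries and at 126, 122, 119 and 132 CPM in labelled libraries. As in 6.05% of all tested genes, the groups lay apart, with all 4 labelled libraries below all WT libraries. This log2 fold change of -0.15 (SE 0.0368, edgeR's adjusted p = 0.1002) did not pass. With the same filter only DESeq2, which gave -0.15 (adjusted p = 0.0238), called it, while limma voom did not. Bace2, a beta-secretase, was at 36.2 ± 2.6 and 39.9 ± 1.51 CPM in WT and labelled libraries (SD, n = 4), which was 0.14 on the log2 scale (adjusted p = 0.349).

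Of 11 genes for receptor restraint and turnover, 3 were at positive and 8 at negative values, with a median of -0.008. Nedd4, a ubiquitin ligase, was the most abundant at 207 CPM per kb, followed by Erbin, an ErbB2-binding scaffold, at 18.5 CPM per kb, with adjusted p-values of 0.997 and 0.963. The smallest p belonged to the ubiquitin ligases Wwp1, at a log2 fold change of 0.08 (adjusted p = 0.467), and Itch, at 0.05 (adjusted p = 0.631). Errfi1, whose product inhibits the receptor kinases, had means of 18.1 ± 0.868 CPM in WT and 16.7 ± 1.73 CPM in labelled libraries (SD, n = 4; log2 fold change -0.12, adjusted p = 0.643).

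Of 27 adaptors and cascade members, 14 were at positive and 13 at negative values, with a median of 0.01. The kinase gene Akt1 (108 CPM per kb) and the adaptor gene Grb2 (39.4 CPM per kb) were the most abundant, with log2 fold changes of -0.01 and -0.002. The smallest p belonged to Pik3r2, a regulatory subunit of PI3-kinase, at 0.10 (adjusted p = 0.271), and to the docking protein gene Gab1, at 0.09 (adjusted p = 0.324). For both genes the groups lay apart, as they did for Furin, with every labelled library above every WT library.

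**Figure D5:**
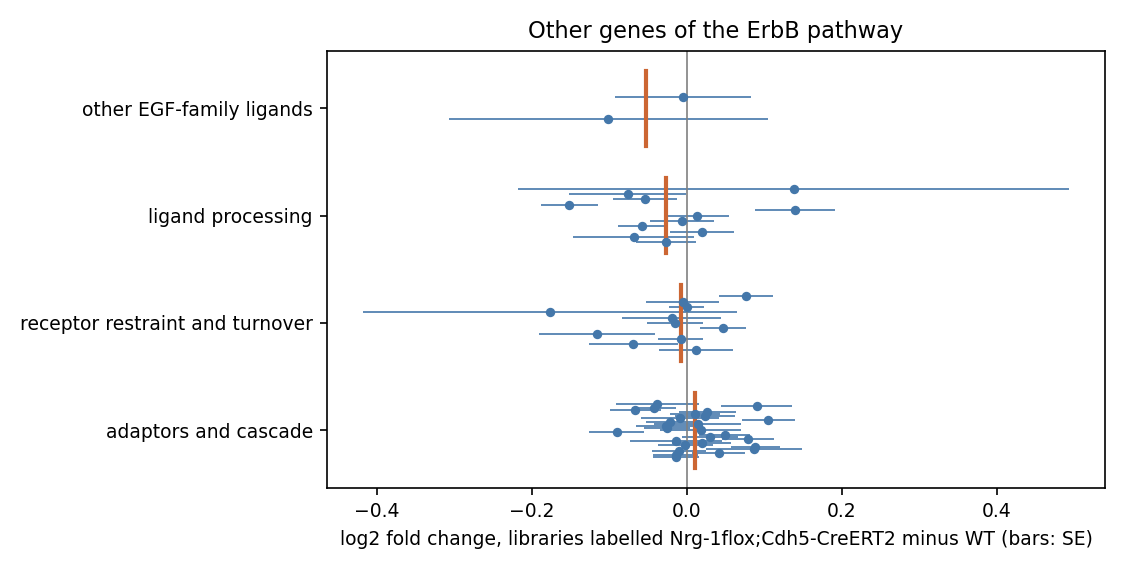
Log2 fold changes (points, with SE as bars) of the 51 tested genes of the 4 other pathway lists, with each list's median as an orange line. The list medians lie between -0.05 and 0.01.

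The genes whose levels over the 8 libraries were most like those of 4 of the receptors and ligands were found among 10810 tested genes of at least 5 CPM, by the root mean square difference of standardised log2 CPM, which is 0 for the same pattern. For Nrg1 these were Tfb2m (0.298), Fzd4 (0.308) and Cox14 (0.329), and for Egfr they were Slit3 (0.217), Grina (0.233) and Arap1 (0.292). Camta1 (0.218), Heca (0.223) and Tigd5 (0.236) were nearest to Erbb3, and Thg1l (0.374), Ddx27 (0.379) and Siah1b (0.397) to Erbb4. Likeness is given as a description over 8 libraries and was not tested.

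Levels of cell type markers bear on every value above. Of 7 endothelial and endocardial markers, 5 were at negative log2 fold changes (median -0.06). The sum of the 7 was 1097 to 1148 CPM in WT and 1033 to 1124 CPM in labelled libraries. In edgeR's test 4 of the 7 had an unadjusted p below 0.05, where 10.5% of all tested genes did. Those were Kdr (-0.17), Tie1 (-0.17), Pecam1 (-0.09) and Emcn (0.18). The groups did not overlap for Kdr and Tie1, as for 6.05% of all tested genes, while Cdh5, the most abundant, was at 0.008. All 4 atrial markers were at negative values (median -0.20; sums of 327 to 348 and 275 to 351 CPM). The 3 epicardial markers, by contrast, were at positive values (median 0.13; sums of 96.2 to 106 and 104 to 115 CPM). Of 4 smooth muscle and mural markers, Acta2, the most abundant, was at 0.12, and Myh11 (-0.42), Pdgfrb (-0.15) and Tagln (-0.10) were at negative values, so that the sum (1446 to 1541 CPM in WT and 1529 to 1630 CPM in labelled libraries) and the median (-0.12) differ in direction. The sums of fibroblast and valve (2325 to 2834 and 2332 to 2712 CPM) and leukocyte markers (30.9 to 42.8 and 37.3 to 50.3 CPM; median 0.14) overlapped between the groups. An unadjusted p below 0.05 in edgeR's test was not limited to endothelial markers. It was found for 2 of the 3 epicardial and 2 of the 4 smooth muscle and mural markers. It was also found for 1 of 4 atrial, 1 of 5 fibroblast and valve, 1 of 6 cardiomyocyte and 0 of 3 leukocyte markers. The groups lay apart for the epicardial marker Upk3b as well. No marker reached an adjusted p below 0.05 in edgeR's test, and the part of any of these cells in the levels of the receptors and ligands was not tested.

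Beyond their roles, the 10 genes differed widely in structure. Nrg1 and Erbb4 span 1069 and 1076 kb, while Areg spans 8.83 kb and Hbegf 10.9 kb. The coefficient of variation over the 8 libraries was 2.69% for Erbb2 and 4.2% for Erbb4, which had the most counts, against 31.8% for Nrg2 and 30.9% for Nrg4. Between them the order of the spread was not that of the counts, since Btc (10.2%) varied less than Egfr (12.8%) and Nrg1 (16.3%) with fewer counts. The table lists 18 transcripts of Nrg1, and its counts were not whole in 6 of the 8 libraries. The lincRNA gene Gm26578 shares 482 exonic bases with Nrg1 on the opposite strand but had at most 6 expected counts in any library.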

How the data were processed

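The deposited table holds RSEM expected counts of Ensembl genes, made by the authors, in 8 libraries. The submitters' processing notes name cutadapt, RSEM 1.3.1 and GRCm38, and the table's name gives the annotation release; the aligner and strand setting are not given in the sources used here. Expected counts divide a read that matches several genes, and were rounded. Of 53465 identifiers, 53360 matched GENCODE M21 (GRCm38), which gave symbols, positions and exonic lengths. The fit used filterByExpr (15388 genes), TMM and edgeR 4.0.16 in R 4.3.3 (glmQLFit and glmQLFTest, two-sided, Benjamini-Hochberg over all tested genes, threshold 0.05), with group as the only term. SE came from the F statistic. CPM are counts scaled to 1000000 per TMM-adjusted library. The fit was tested on simulated data. Alternatives used DESeq2 1.42.0 and limma 3.58.1 (voom). The genes and lists were chosen with earlier results of these data known. Named genes were the 10 receptors and ligands and, of each pathway list, the 2 of highest level per kb and the 2 of smallest p. Errfi1, Ereg, Epgn, Nrg3 and the single cell type markers were added after their values were seen. Some members of the lists are not reported here by name. Figures were drawn with matplotlib 3.10.9.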

Additional observations from a re-analysis of the deposited data

How the results depend on the processing

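The log2 fold change of Nrg1 kept its direction and its side of the threshold in all 16 alternatives, with 0.27 to 0.40 when 1 library was left out and 0.32 when Y-linked expression entered as a covariate (adjusted p = 0.564, the highest). No alternative called any of the 10 genes, and 0 were called when each library was left out in turn. Over all genes, leaving out 1 library gave 11 to 142 calls and the Y-linked covariate gave 16, against 81 in the main fit. Of the other pathway genes, 1 (Furin) was called without a filter on low counts (1 call), with DESeq2 (1 call) and without labelled library 4. Leaving out libraries thus gave 0 to 1 calls among them. The settings that called Furin also called more genes in all, at 338, 198 and 142. Fold changes that had not passed the test changed sign in 6 cases, and the changed values were at most 0.06 in size. Under that covariate, Egfr went to 0.011 and Erbb2 to -0.0034. When 1 library was left out, Nrg4 ranged from -0.41 to 0.039, Btc from -0.060 to 0.11 and Erbb4 from -0.059 to 0.0013. The cause was not tested. DESeq2 gave no adjusted p for Nrg2. Deviations of same-numbered libraries from their group means correlated across genes at 0.122, 0.0522, 0.0395 and 0.125, each above the other pairings (-0.0943 to 0.0232). Not every value passed 0.1, so shared numbers were not taken as pairing. With the replicate number as a block, Nrg1 was at 0.35, no receptor or ligand was called (0), and 93 genes were called in place of 81. Leaving out 1 library moved Erbb3 between 0.059 and 0.17, Hbegf between -0.13 and -0.0093, Egfr between -0.21 and -0.051, Erbb2 between 0.0022 and 0.041, and Nrg2 between 0.29 and 0.67. Depth limits Nrg2, Nrg4 and Areg most.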
